A study of Mus musculus with 5 samples.

Results

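The 10 genes described here mark T cells and natural killer (NK) cells. They are *Cd3d*, *Cd3e* and *Cd3g*, which encode chains of the CD3 complex, *Cd4*, *Cd8a* and *Cd8b1*, which encode coreceptors, *Lck* and *Zap70*, which encode kinases of the T-cell receptor, and *Nkg7* and *Klrb1c*, which are genes of cytotoxic and NK cells. They were chosen by gene symbol as markers of these cell types, and no threshold on the counts was used. All 10 were found among the 24421 gene symbols of the count data.

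RNAseq compared the kidney cortex of 3 *Fnip1* null mice, numbered 8637, 9210 and 9121, and 2 wildtype mice, numbered 9055 and 9056, with 1 library per mouse. *Fnip1* encodes a partner protein of Folliculin, whose gene is mutated in a hereditary kidney tumor syndrome. The genotype label is *Fnip1*-/- for the null mice and *Fnip1*+/+ for the wildtype mice, although the study's text also writes the controls as *Fnip1*+/-, and the study counts more wildtype mice for its RNAseq than the 2 analysed here. All mice were on the C57BL6J background, none was labelled with a treatment, and the kidneys were frozen after isolation. The null allele arose by chemical (ENU) mutagenesis and is not restricted to a cell type, so that T and NK cells of the null mice carry it as well as kidney cells. The study gives one range of weeks in adult life for the age of all mice, and the labels give neither the age nor the sex of a mouse. The comparison asks which transcripts of T and NK cells differed in abundance between *Fnip1* null and wildtype kidney tissue.

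T cells recognize antigen through the T-cell receptor, which signals through the CD3 chains that accompany it. The coreceptors CD4 and CD8 bind MHC molecules on the other cell and bring the kinase *Lck* to the receptor, *Lck* phosphorylates the CD3 chains, and *Zap70* docks on these chains and passes the signal on. NK cells kill without a T-cell receptor and share with cytotoxic T cells the granule proteins used for killing. In a healthy kidney both cell types are a small population of leukocytes between the tubules and in blood vessels, and most of the RNA of the cortex comes from tubular epithelium.

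The regions around the transcription start of 5 of these genes are shown from RefSeq (build GRCm38.p6), as 250 bases before the start and 50 after it, in the direction of transcription. The 3 CD3 genes are shown because they lie together on chromosome 9, where *Cd3g* and *Cd3d* are transcribed away from each other from gene starts with 1354 bases between them, and *Cd8a* and *Nkg7* are shown because, with *Cd3d*, they were the members with the lowest p-values. Capitals mark the letters AGGAAG, which hold the core bound by ETS factors, and TGTGGT, which is the core bound by RUNX factors. Both were searched on both strands, so that CTTCCT and ACCACA are the same letters read on the other strand. The windows are chr9:44981536-44981835 on the plus strand for *Cd3d*, chr9:44980382-44980681 on the minus strand for *Cd3g*, chr9:45009562-45009861 on the minus strand for *Cd3e*, chr6:71373177-71373476 on the plus strand for *Cd8a* and chr7:43436888-43437187 on the plus strand for *Nkg7*.
Cd3d: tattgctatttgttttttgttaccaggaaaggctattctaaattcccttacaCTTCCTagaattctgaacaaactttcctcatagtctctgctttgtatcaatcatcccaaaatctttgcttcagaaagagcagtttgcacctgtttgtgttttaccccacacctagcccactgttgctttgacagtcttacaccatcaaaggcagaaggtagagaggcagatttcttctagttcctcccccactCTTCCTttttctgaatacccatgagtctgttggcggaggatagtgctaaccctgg
Cd3g: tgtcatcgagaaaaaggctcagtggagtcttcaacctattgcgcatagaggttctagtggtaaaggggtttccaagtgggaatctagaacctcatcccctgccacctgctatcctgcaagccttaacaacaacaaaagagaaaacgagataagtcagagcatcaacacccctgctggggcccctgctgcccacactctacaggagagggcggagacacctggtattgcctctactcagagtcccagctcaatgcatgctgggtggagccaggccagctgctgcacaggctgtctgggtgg
Cd3e: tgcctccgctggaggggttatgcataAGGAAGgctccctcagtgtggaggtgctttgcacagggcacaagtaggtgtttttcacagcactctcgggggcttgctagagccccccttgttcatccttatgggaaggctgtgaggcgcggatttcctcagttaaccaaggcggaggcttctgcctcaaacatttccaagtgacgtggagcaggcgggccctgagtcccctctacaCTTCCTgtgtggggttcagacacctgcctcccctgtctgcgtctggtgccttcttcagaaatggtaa
Cd8a: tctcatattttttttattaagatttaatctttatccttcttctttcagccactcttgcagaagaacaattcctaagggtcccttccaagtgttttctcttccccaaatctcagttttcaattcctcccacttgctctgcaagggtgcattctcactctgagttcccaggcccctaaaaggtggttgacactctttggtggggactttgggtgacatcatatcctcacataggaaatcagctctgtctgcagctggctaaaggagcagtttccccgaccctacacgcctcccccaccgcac
Nkg7: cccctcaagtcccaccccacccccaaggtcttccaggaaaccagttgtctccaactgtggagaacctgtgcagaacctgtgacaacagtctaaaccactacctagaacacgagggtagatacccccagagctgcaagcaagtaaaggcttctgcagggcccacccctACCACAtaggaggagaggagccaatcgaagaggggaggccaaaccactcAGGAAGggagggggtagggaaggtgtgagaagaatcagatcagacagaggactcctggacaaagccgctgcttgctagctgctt

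Of the 10 members, 8 had such a window, with 11 windows in all, since *Lck* and *Zap70* have more than 1 start. *Cd4* and *Cd8b1* had none. The ETS letters were found in 8 of the 11 windows and in 35.4% of all 32851 mouse windows of this length. The RUNX letters were found in 4 of the 11 windows and in 16.8% of all windows. A TATA box, searched as TATAAA, was found in 0 of the 11 windows and in 13.6% of all windows. Windows of one gene are not independent, and a match of these letters is a description of the sequence only. Neither the ETS nor the RUNX letters were found in the windows of *Cd8a* and *Cd3g*.

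Reads counted on genes ranged from 15799114 to 19132145 per mouse, and a count of 3 corresponded to between 0.158 and 0.186 normalized CPM in a mouse. CPM are counts scaled to a common library total with the TMM factor of the library, a normalization that assumes that most genes do not differ. *Fnip1* itself had 356, 285 and 303 counts in the null mice 8637, 9210 and 9121 and 833 and 851 counts in the wildtype mice 9055 and 9056, so that each null library was lower than each wildtype library, as the genotype labels say. The cortex markers *Umod* and *Slc34a1*, which encode a protein of the thick ascending limb and the phosphate transporter of the proximal tubule, had between 75045 and 149944 counts in every mouse. The library of null mouse 9121 stood apart from the other 4. It had 5954 counts of the X-linked *Xist* and 0 counts of the Y-linked *Ddx3y* and *Uty*. The other 4 had 3 to 24 counts of *Xist* and 720 to 885 counts of *Ddx3y*. In mouse 9121 the 5 sex-linked genes read, *Xist* included, summed to 5961 counts, so not every Y-linked gene was at 0. The library of mouse 9121 was also the one with the most T and NK cell counts. Because it was the only library of this kind, its sex and any other property of this mouse cannot be told apart. The main results are therefore given with and without mouse 9121.

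Transcripts of T and NK cells were rare in every mouse. The members had between 1 and 85 raw counts per mouse, 19 of the 50 values were under 10 counts, and the mean count of a member over the 5 mice lay between 3.4 and 44.2, against a median of 420.6 over all genes tested. Summed over the 10 members, the null mice 8637, 9210 and 9121 had 164, 190 and 457 counts and the wildtype mice 9055 and 9056 had 134 and 76 counts. Each null mouse had more than each wildtype mouse, but mouse 8637 exceeded mouse 9055 by less than the wildtype mice differed from each other. As normalized CPM the sum was 15.0 ± 7.92 (SD, n = 3) in the null mice and 6.33 ± 2.81 (SD, n = 2) in the wildtype mice, a ratio of 2.37. Without mouse 9121 the ratio was 1.65. In bulk tissue, more cells of a type and more RNA per cell cannot be told apart.

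**Figure D1:**
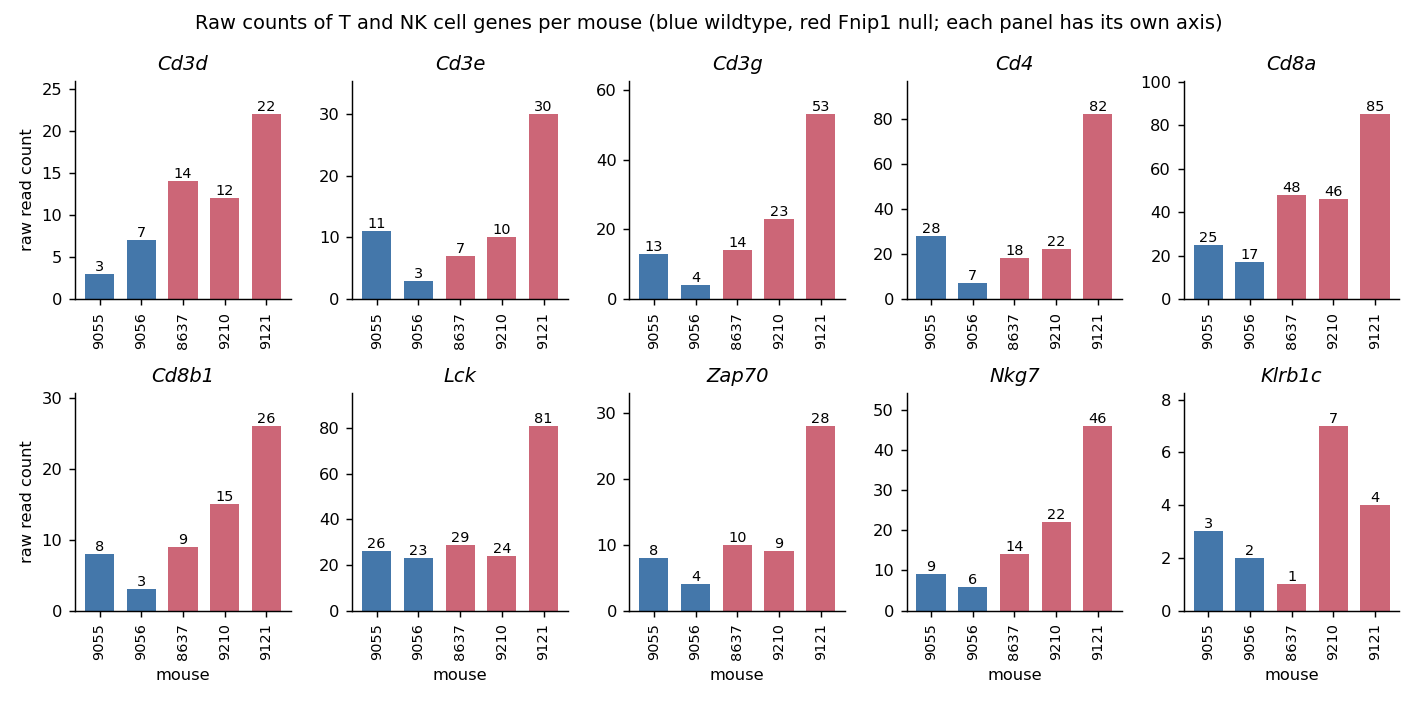
Raw read counts of the 10 T and NK cell genes (vertical axis, each panel with its own scale) in each mouse (horizontal axis), with wildtype mice in blue and *Fnip1* null mice in red and the count printed above each bar. Mouse 9121 was the highest in 9 of the 10 panels, and in *Klrb1c* no mouse had more than 7 counts.

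The CD3 chains are the part of the T-cell receptor complex that all conventional T cells share. *Cd3d* encodes the delta chain and lies at chr9:44981786-44987339 on the plus strand (GRCm38, GENCODE M21). It had 14, 12 and 22 counts in the null mice 8637, 9210 and 9121 and 3 and 7 counts in the wildtype mice 9055 and 9056. Every null mouse was above both wildtype mice, and the 2 wildtype mice were both under 10 counts. The level was 0.899 ± 0.233 CPM (SD, n = 3) in null and 0.293 ± 0.151 CPM (SD, n = 2) in wildtype mice. The log2 fold change was 1.59 (SE 0.499), which did not pass the threshold of a false discovery rate of 5% and at least 2-fold (adjusted p = 0.131, edgeR's quasi-likelihood test with Benjamini-Hochberg adjustment over all genes tested). Without mouse 9121 it was 1.35 (adjusted p = 0.242, same test).

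*Cd3g*, the gene of the gamma chain (chr9:44969572-44980431, minus strand), had 14, 23 and 53 counts in the null mice and 13 and 4 in the wildtype mice, here and below in the order 8637, 9210, 9121 and 9055, 9056. In raw counts mouse 8637 exceeded mouse 9055 by 1 count only, so the separation of the genotypes rests on a difference within counting error. Its log2 fold change was 1.70 (SE 0.725, adjusted p = 0.209 by the quasi-likelihood test), 1.09 without mouse 9121, 1.05 without wildtype mouse 9056 and 2.83 without wildtype mouse 9055. *Cd3e*, the gene of the epsilon chain (chr9:44998740-45009627, minus strand), had 7, 10 and 30 counts in the null mice and 11 and 3 in the wildtype mice. Here the genotypes overlapped, since wildtype mouse 9055 was above null mice 8637 and 9210. Its log2 fold change of 1.04 (SE 0.803, adjusted p = 0.450 by the quasi-likelihood test) was 0.26 without mouse 9121, 0.35 without wildtype mouse 9056 and 2.30 without wildtype mouse 9055. An antisense gene overlaps *Cd3e*, and the library kit does not mark strand, so reads of the pair cannot be told apart. Summed, the 3 CD3 genes had 35, 45 and 105 counts in the null mice and 27 and 14 in the wildtype mice, a ratio of 2.77 in mean CPM and of 1.91 without mouse 9121.

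The coreceptors divide helper from cytotoxic T cells, and *Cd4* is also transcribed in some macrophages and dendritic cells. *Cd8a* encodes the alpha chain of CD8 (chr6:71373427-71379173, plus strand) and had the highest total count of the members. It had 48, 46 and 85 counts in the null mice and 25 and 17 in the wildtype mice. All null mice were above both wildtype mice, also without mouse 9121. The level was 3.35 ± 0.986 CPM (SD, n = 3) in null and 1.26 ± 0.410 CPM (SD, n = 2) in wildtype mice, with a log2 fold change of 1.41 (SE 0.375). It had the lowest adjusted p of the members (0.105 by edgeR's quasi-likelihood test) and did not pass the threshold. Other tests did call it. The adjusted p of *Cd8a* was 0.0194 by edgeR's exact test, 0.015 by edgeR's likelihood ratio test and 0.032 by DESeq2. Without mouse 9121 the log2 fold change was 1.14, and the adjusted p was 0.149 by the quasi-likelihood test, 0.0522 by the exact test, 0.0476 by the likelihood ratio test and 0.272 by DESeq2.

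*Cd8b1* encodes the beta chain that pairs with CD8 alpha on conventional cytotoxic T cells, and lies beside *Cd8a* on the same strand (chr6:71322788-71337494) with 35932 bases between the genes. It had 9, 15 and 26 counts in the null mice and 8 and 3 in the wildtype mice. The lowest null mouse and the highest wildtype mouse differed by 1 count. More than 2 mice had under 10 counts, which kept it out of the main test, and a fit without this filter gave a log2 fold change of 1.47 (SE 0.658, adjusted p = 0.250 by the quasi-likelihood test). *Cd4*, which encodes the coreceptor of helper T cells (chr6:124864692-124888221, minus strand), had 18, 22 and 82 counts in the null mice and 28 and 7 in the wildtype mice. Wildtype mouse 9055 was above null mice 8637 and 9210, and mouse 9121 was above all others. The log2 fold change of *Cd4* was 1.08 (SE 0.832, adjusted p = 0.449 by the quasi-likelihood test) and 0.16 without mouse 9121 (adjusted p = 0.918, same test). It was 0.37 without wildtype mouse 9056 and 2.47 without wildtype mouse 9055, so that its size depended on single mice of both genotypes.

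The share of *Cd4* counts among *Cd4* and *Cd8a* counts describes the balance of both transcripts within a mouse. It was 27.3% in null mouse 8637 (95% Wilson interval 18.0 to 39.0), 32.4% in null mouse 9210 (22.4 to 44.2) and 49.1% in null mouse 9121 (41.6 to 56.6). In the wildtype mice it was 52.8% in 9055 (39.7 to 65.6) and 29.2% in 9056 (14.9 to 49.2). The genotypes overlapped, and mice 9121 and 9055 had the higher shares. The intervals cover counting error only. The 3 CD3 genes held between 18.4% and 23.7% of the counts of all members in every mouse, while the total they were part of ranged from 76 to 457 counts.

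*Lck* phosphorylates the CD3 chains and is expressed in T cells and NK cells (chr4:129548344-129573641, minus strand). It had 29, 24 and 81 counts in the null mice and 26 and 23 in the wildtype mice. Mouse 9210 lay between the wildtype mice, mouse 8637 was 3 counts above the higher of them, and mouse 9121 was far above all others. The log2 fold change was 0.76 (SE 0.540, adjusted p = 0.415 by the quasi-likelihood test) and 0.10 without mouse 9121 (adjusted p = 0.910, same test). *Zap70*, the kinase that binds phosphorylated CD3 chains (chr1:36761798-36782818, plus strand), had 10, 9 and 28 counts in the null mice and 8 and 4 in the wildtype mice. The null mice were above the wildtype mice, but 9210 exceeded 9055 by 1 count. *Zap70* had too few counts for the main test, and the fit without the filter gave 1.25 (SE 0.677, adjusted p = 0.333 by the quasi-likelihood test), or 0.63 without mouse 9121. A pseudogene on the other strand overlaps *Zap70*.

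*Nkg7* encodes a membrane protein of cytotoxic granules in NK cells and cytotoxic T cells (chr7:43437073-43438249, plus strand). It had 14, 22 and 46 counts in the null mice and 9 and 6 in the wildtype mice. All null mice were above both wildtype mice, which were both under 10 counts. Its level was 1.52 ± 0.822 CPM (SD, n = 3) in null and 0.451 ± 0.153 CPM (SD, n = 2) in wildtype mice, and its log2 fold change of 1.76 (SE 0.593, adjusted p = 0.146 by the quasi-likelihood test) was the highest of the members tested. Without mouse 9121 it was 1.24 (adjusted p = 0.237, same test). *Klrb1c* encodes the NK1.1 receptor, by which NK cells are recognized in this strain (chr6:128778485-128789215, minus strand). It had 1, 7 and 4 counts in the null mice and 3 and 2 in the wildtype mice. The genotypes overlapped, mouse 9121 was not the highest, and no difference was detectable at this depth (log2 fold change 0.58, SE 0.932, adjusted p = 0.747 by the quasi-likelihood test without the filter). Reads of *Klrb1c* may be split with the similar genes *Klrb1a*, *Klrb1b* and *Klrb1f*, so that its count is uncertain. *Ncr1*, another receptor that defines NK cells and was named here after its counts were seen, had 2, 1 and 0 counts in the null mice and 1 and 0 in the wildtype mice. Neither receptor exceeded 7 counts in a mouse, and *Nkg7*, the other member that marks NK cells, is also expressed by T cells, so these data hold little that is specific to NK cells.

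Levels between genes are compared per exon length (CPM per 1000 exon bases, GENCODE M21, mean of the 5 mice). On this scale *Nkg7* had 1.19, *Lck* 0.706 and *Cd8a* 0.691, and their order differed between mice. In the wildtype mice alone *Lck* had 0.500, *Nkg7* 0.493 and *Cd8a* 0.347, and without mouse 9121 *Nkg7* had 0.830, *Cd8a* 0.556 and *Lck* 0.517. *Cd8b1* had 0.467, *Cd4* 0.438, *Cd3g* 0.368, *Cd3d* 0.362, *Zap70* 0.222 and *Cd3e* 0.169 over the 5 mice. *Klrb1c* was the lowest with 0.0666, and was also the lowest in either genotype. The levels of *Cd3g* and *Cd3d* differed by less than either varied between mice.

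In the main test 7 of the 10 members could be tested, and *Cd8b1*, *Zap70* and *Klrb1c* could not. *Cd3d* and *Nkg7* passed the filter only through the null mice, so a summary over the 7 would favour higher null values, and all 10 are summarized from the fit without the filter. None of the 7 members was called (0 members), against 56 of all 13874 genes tested that were called higher in null mice, or 0.404%, and 0.533% in either direction. An unadjusted p under 0.05 was reached by 3 of the 7 (*Cd3d*, *Cd8a* and *Nkg7*) and, in the higher direction, by 13.9% of all genes tested. Without mouse 9121 again 0 members were called, against 0.649% of all genes called higher in null mice. An unadjusted p under 0.05 was reached by 3 members and, in the higher direction, by 11.6% of all genes.

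Over all 10 members, the fit without the filter called 0 members, against 0.605% of its 17850 genes called higher in null mice. An unadjusted p under 0.05 was reached by 4 members and, in the higher direction, by 11.9% of all genes. The log2 fold change was positive for 10 of 10 members and for 52.5% of all genes, and at least 1 for 8 members and 13.1% of all genes. At the median, members had a log2 fold change of 1.33 and all genes 0.03. Without mouse 9121 the same fit called 0 members, against 0.101% of all genes called higher in null mice. An unadjusted p under 0.05 was then reached by 1 member and, in the higher direction, by 9.09% of all genes. The log2 fold change was at least 1 for 5 members (10.1% of all genes), and the member median was 0.86. The member counts were low, and genes with low counts have wider errors than the typical gene behind these shares.

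**Figure D2:**
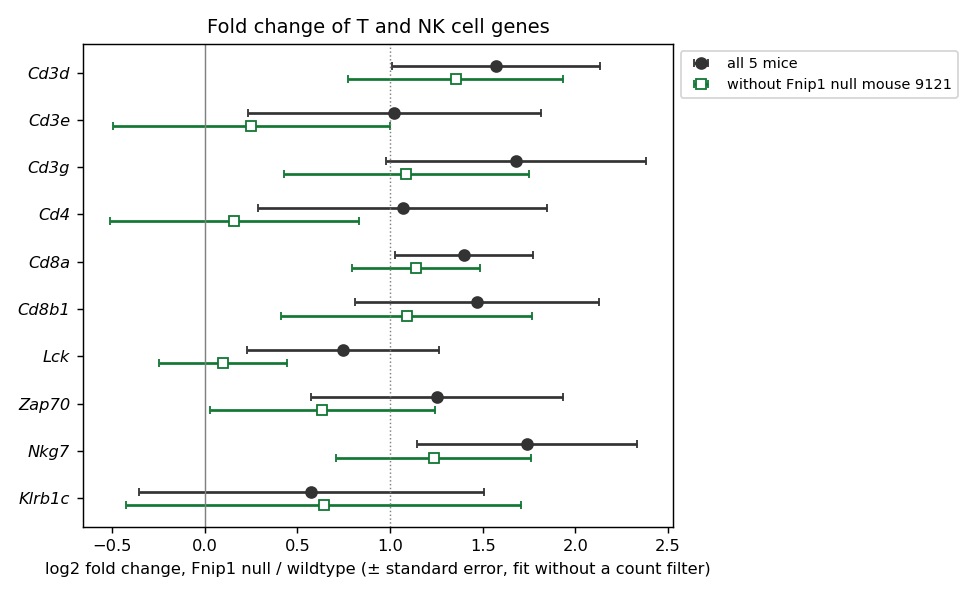
Log2 fold change (null over wildtype, horizontal axis) of each of the 10 genes, from edgeR's quasi-likelihood fit without a count filter. Values are for all 5 mice (black circles) and without mouse 9121 (green squares). Bars are standard errors derived from the log2 fold change and the F statistic of the test. The dotted line marks a 2-fold change, and the values of *Cd3e*, *Cd4* and *Lck* fell to 0.25, 0.16 and 0.10 without that mouse.

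Other tests called more genes, among the members as among all genes. The shares of all genes given here are those called higher in null mice. The exact test called *Cd8a* only, 1 of 7 members, and 3.06% of all genes as higher in null mice. The likelihood ratio test called *Cd8a*, *Cd3d* and *Nkg7* (adjusted p = 0.015, 0.046 and 0.0471), against 3.44% of all genes. *Cd3d* and *Nkg7* passed the filter only through the null mice, so their calls, here and below, do not compare with the shares of all genes. DESeq2 called *Cd8a*, 1 of the 5 members for which it gave an adjusted p, against 2.66% of all genes. With null mouse 8637 left out, the quasi-likelihood test called *Cd8a* (adjusted p = 0.0456) and *Nkg7* (adjusted p = 0.0404), against 4.53% of all genes. Without mouse 9121, the exact test called 0 members (2.37% of all genes), the likelihood ratio test called *Cd8a* (2.59%) and DESeq2 called 0 (1.62%). For any 1 gene, exact permutation of 3 mice against 2 has a smallest possible p of 0.1.

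The genotypes did not overlap for 6 of the 10 members, with all null mice above both wildtype mice in CPM (*Cd3d*, *Cd3g*, *Cd8a*, *Cd8b1*, *Zap70* and *Nkg7*), and for 20.7% of all 17850 genes. Without mouse 9121 the same count was 6 members and 24.5% of all genes. Mouse 9121 was the highest of the 5 mice for 9 of the 10 members and for 26.9% of all genes. It had between 0.889 and 3.66 times the mean CPM of the other null mice, with the lowest ratio for *Klrb1c* and the highest for *Cd4*. Wildtype mouse 9056 was the lowest for 8 of the 10 members and for 24.6% of all genes, and mouse 9055 had at least 2-fold the CPM of mouse 9056 for 5 members. The ratio of mouse 9055 to mouse 9056 ran from 0.466 for *Cd3d* to 4.34 for *Cd4*, so the 2 wildtype mice differed by as much as the genotypes did for several members.

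Summed levels of several other leukocyte marker lists were also higher in the null mice than in the wildtype mice. The 8 pan-leukocyte genes, among them *Ptprc*, which encodes CD45, had summed levels of 53.0, 67.4 and 115 CPM in the null mice and 46.6 and 31.3 CPM in the wildtype mice, in the order used above. All 8 had a positive log2 fold change (50.5% of all genes tested, list median 1.05, and 0.65 without mouse 9121), 5 had an unadjusted p under 0.05 (25.1% of all genes in either direction), and 0 passed the threshold of the quasi-likelihood test, which called 0.404% of all genes tested as higher. Their order over the mice was that of the T and NK cell sum, with mouse 9121 the highest and mouse 9056 the lowest. The 10 macrophage genes summed to between 135 and 229 CPM in null and between 120 and 132 CPM in wildtype mice, with 9 positive log2 fold changes (median 1.23), an unadjusted p under 0.05 for all 10 and 0 calls at 2-fold by the same test. *Csf1r*, the receptor that macrophages depend on and the macrophage gene with the most counts, went the other way, with 649, 613 and 1210 counts in null and 1165 and 1196 in wildtype mice. The 10 dendritic cell genes summed to between 26.9 and 49.2 CPM in null and between 17.8 and 22.0 CPM in wildtype mice, and all 10 had positive log2 fold changes without the filter (median 0.87, and 0.72 without mouse 9121). The quasi-likelihood test called 0 of the 8 that it tested, 3 of which passed the filter only through the null mice. Without the filter the same test called 1, *Itgax* (adjusted p = 0.0455), against 0.605% of all genes called higher in null mice.

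**Figure D3:**
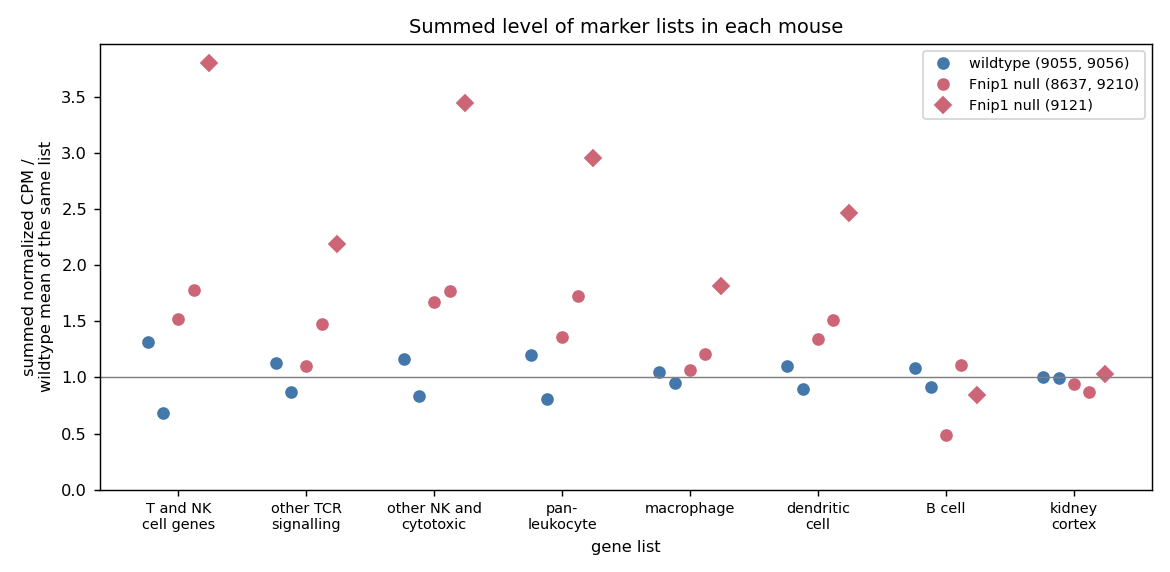
Summed normalized CPM of 8 gene lists (horizontal axis) in each mouse, divided by the wildtype mean of the same list (vertical axis, 1 marked by a line), with wildtype mice in blue, null mice 8637 and 9210 as red circles and null mouse 9121 as a red diamond. Mouse 9121 was the highest for the T and NK cell genes and for the other T cell receptor, NK, pan-leukocyte, macrophage and dendritic cell lists, and its kidney cortex sum was close to that of the wildtype mice.

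Relative to these leukocyte markers, the T and NK cell genes differed less between the genotypes. Their sum was 18.2%, 16.7% and 20.9% of the pan-leukocyte sum in the null mice and 17.8% and 13.9% in the wildtype mice. The genotypes overlapped, with 18.6 ± 2.13% (SD, n = 3) against 15.9 ± 2.81% (SD, n = 2). Against the macrophage sum the values were 7.16%, 7.37% and 10.5% in null and 6.28% and 3.62% in wildtype mice, which did not overlap. *Csf1r* held 54.6% and 56.9% of the macrophage counts in the wildtype mice and 23.8% to 28.3% in the null mice. Without *Csf1r*, an alternative chosen after seeing the data, the values were 9.99%, 9.67% and 14.6% in null and 13.8% and 8.39% in wildtype mice, which overlapped. Against the dendritic cell sum they were 36.0%, 37.4% and 49.0% in null and 37.7% and 24.4% in wildtype mice, which overlapped. The part that the number of leukocytes in the tissue pieces had in the T and NK cell values was not tested.

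**Figure D4:**
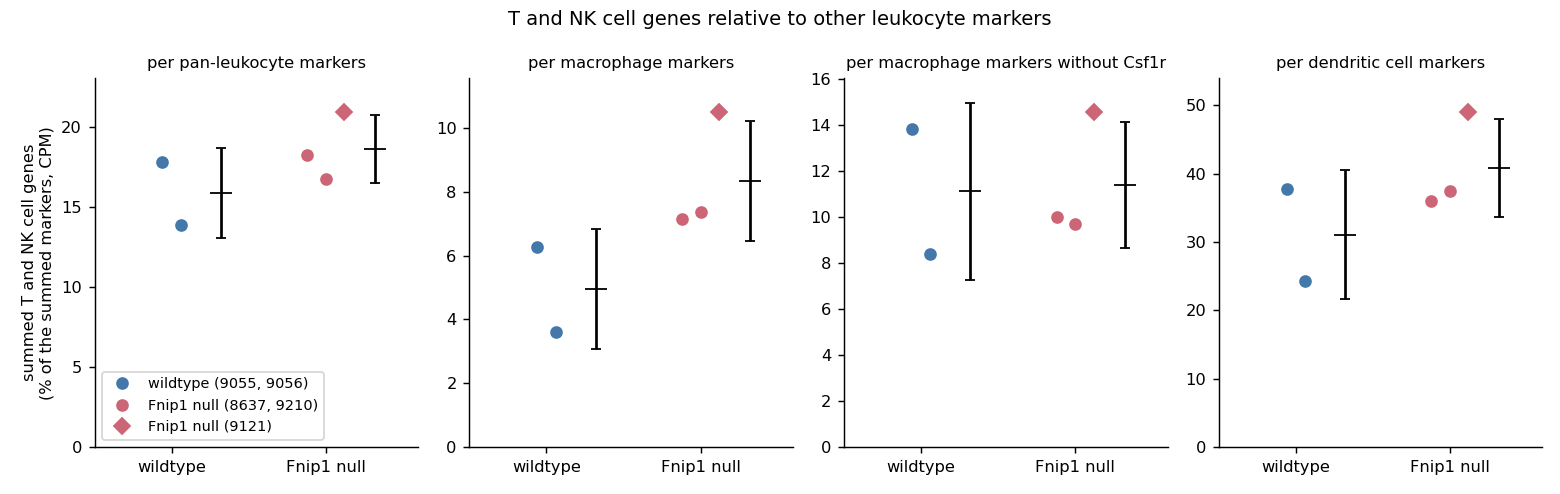
Summed CPM of the 10 T and NK cell genes as a percentage of the summed CPM of pan-leukocyte markers, of macrophage markers with and without *Csf1r* and of dendritic cell markers (4 panels, vertical axes from 0), for wildtype (blue) and null mice (red, mouse 9121 as a diamond), with the mean and SD of each genotype in black beside the points. The genotypes overlapped in every panel except that of the full macrophage list, in which *Csf1r* was counted.

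Further genes of the same pathways were read from 3 lists of textbook genes, with 63 genes in the count data, of which 26 had enough counts for the main test. None was called by the quasi-likelihood test (0 of 26). Of these 26, 4 passed the filter only through the null mice, so the list is summarized from the fit without the filter, in which 61 of the genes had a count. That fit called 0 of the 61. A positive log2 fold change was found for 51 (52.5% of all genes in that fit), an unadjusted p under 0.05 with higher null values for 16 (11.9% of all genes), and all null mice above both wildtype mice for 19 (20.7% of all genes). The median log2 fold change of the 61 was 0.79, and 0.30 without mouse 9121, which was the highest of the 5 mice for 45 of them (26.9% of all genes). The genes of the constant regions of the T-cell receptor (Trac, Trbc1, Trbc2 and Trdc) had no match among the symbols and were not analysed here.

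Among the 20 other genes of T-cell receptor signalling, 19 were positive in the fit without the filter (median 0.86, and 0.31 without mouse 9121), and 12 had enough counts for the main test. *Fyn*, a kinase related to *Lck* that many tissues express, had 218, 291 and 345 counts in null and 140 and 145 in wildtype mice (log2 fold change 0.92, adjusted p = 0.0747 by the quasi-likelihood test). *Prkcq*, which encodes a protein kinase C of the T-cell synapse, had 155, 225 and 345 counts in null and 136 and 140 in wildtype mice (0.72, adjusted p = 0.190 by the same test). *Rasgrp1*, which activates Ras after receptor signalling, went the other way with 48, 72 and 144 counts in null and 129 and 118 in wildtype mice (-0.58, adjusted p = 0.395 by the same test). *Ptpn22*, a phosphatase that restrains the receptor's kinases, had 64, 69 and 69 counts in null and 51 and 41 in wildtype mice (0.48, adjusted p = 0.267 by the same test). Mouse 9121 did not stand apart in *Ptpn22*. Without this mouse the log2 fold change was 0.83 for *Fyn*, 0.45 for *Prkcq*, -1.05 for *Rasgrp1* and 0.52 for *Ptpn22*.

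Of the 18 matched genes of T cell identity and subsets, 17 had a count, and 13 of these were positive without the filter (median 0.79, and 0.29 without mouse 9121). *Gata3* and *Bcl11b*, which were among the most abundant of them, encode transcription factors that are active in cell types other than T cells as well. *Gata3* had 315, 452 and 450 counts in null and 221 and 232 in wildtype mice, without overlap (log2 fold change 0.77, adjusted p = 0.0878 by the quasi-likelihood test). *Bcl11b* had 200, 148 and 141 counts in null and 141 and 142 in wildtype mice (0.15). Without mouse 9121 the log2 fold change was 0.75 for *Gata3* and 0.29 for *Bcl11b*. *Tcf7*, a factor of T cell development, had 11, 34 and 73 counts in null and 26 and 8 in wildtype mice, and like *Cd4* and *Cd3e* it overlapped between the genotypes (1.09, adjusted p = 0.441 by the same test, and 0.38 without mouse 9121).

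Of the 25 other NK and cytotoxic genes, 24 had a count, and 19 of these were positive without the filter (median 0.76, and 0.29 without mouse 9121). Only 5 reached the main test, and 2 of the 5 passed its filter through the null mice alone, *Klrk1* among them. *Tyrobp*, an adaptor of NK receptors that macrophages express too, had 83, 128 and 191 counts in null and 54 and 45 in wildtype mice (log2 fold change 1.35, adjusted p = 0.103 by the quasi-likelihood test). *Ccl5*, a chemokine released by cytotoxic cells, had 44, 38 and 139 counts in null and 22 and 13 in wildtype mice (1.95, adjusted p = 0.144 by the same test). *Klrk1*, the gene of the activating receptor NKG2D, had 15, 13 and 21 counts in null and 6 and 3 in wildtype mice (1.75, adjusted p = 0.109 by the same test). In these genes all null mice were above both wildtype mice. *Il2rb*, a chain of the interleukin receptor on NK and memory T cells, had 27, 16 and 63 counts in null and 32 and 25 in wildtype mice, and the genotypes overlapped (0.21).

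The granzyme genes *Gzma* and *Gzmb*, named after their counts were seen, had too few counts for the main test. *Gzma* had 14, 6 and 24 counts in null and 4 and 1 in wildtype mice. *Gzmb* had 12, 5 and 25 counts in null and 3 and 1 in wildtype mice. In both genes the null mice were above the wildtype mice by counts that in mouse 9210 were within counting error. Without the filter their adjusted p was 0.163 for *Gzma* and 0.157 for *Gzmb* by the quasi-likelihood test. It was 0.353 and 0.342 without mouse 9121. Of the 24 NK and cytotoxic genes with a count, 9 had all null mice above both wildtype mice (20.7% of all genes). *Prf1* and *Eomes* of this list, also named after their counts were seen, overlapped between the genotypes. *Prf1* had 5, 5 and 16 counts in null and 5 and 3 in wildtype mice. *Eomes* had 6, 4 and 14 counts in null and 4 and 10 in wildtype mice. The exact and likelihood ratio tests each called 7 of the 26 other T and NK cell genes tested as higher in null mice. They called 3.06% and 3.44% of all genes as higher. Among the 7 were *Vav1*, *Il7r*, *Klrk1*, *Cd244*, *Ccl5* and *Tyrobp*. DESeq2 called 4 (2.66% of all genes as higher), *Vav1*, *Ccl5* and *Tyrobp* among them. *Il7r*, *Klrk1* and *Cd244* passed the filter only through the null mice, so their calls do not compare with these shares. Without mouse 9121 the exact test called 3 (2.37% of all genes as higher), among them *Tyrobp* as higher and *Rasgrp1* as lower. *Vav1*, *Il7r* and *Cd244* were named because these tests called them.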

How the data were processed

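RNAseq libraries (TruSeq RNA kit, which does not mark strand, paired-end Illumina sequencing) were made by the authors from kidney cortical tissue. Per the labels and the study's methods, reads were filtered for quality, aligned with TopHat 2.1.0 to the mouse genome (UCSC mm10) and counted per gene symbol with HTSeq 0.6.1. The deposited values are raw counts, not normalized. The annotation and the strand setting are not given in the sources used here. Lines that name no gene, such as reads with more than 1 alignment, held 39.01% to 42.78% of all counts and were left out, so genes with similar copies may be undercounted.

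Counts were compared with edgeR 4.0.16 (on R 4.3.3, with limma 3.58.1), using TMM factors (0.914 to 1.09) and the quasi-likelihood test with Benjamini-Hochberg adjustment over all 13874 genes that had fewer than 10 counts in no more than 2 mice. A gene was called at a false discovery rate of 5% and at least 2-fold. Each standard error (SE) given was derived from the quasi-likelihood test. It is the absolute log2 fold change divided by the square root of the F statistic. DESeq2 1.42.0, edgeR's exact and likelihood ratio tests, other normalizations and filters and leaving out each mouse were alternatives. Groups came from the sample titles. One data file carries another mouse number than the title of its sample, and the title (9210) was used. No pair of libraries agreed within sampling noise (chi-square per degree of freedom of at least 9.735). On simulated data with 200 genes changed 4-fold, the test recovered 171 and called 15 of the unchanged genes. The changed genes were drawn from all genes tested, whose median mean count was 420.6. The highest mean count of a member was 44.2, so this recovery does not describe the members.

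The members and gene lists were chosen with earlier results of these data known. The genes named were all members, the members of each other list past the threshold and then its most abundant genes, up to 4 per list, with *Fnip1*, and any other gene is said to be named after its values were seen. Some genes that this rule picks are not reported here. Gene positions and exon lengths are those of GENCODE M21 on GRCm38, and promoter windows those of RefSeq.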

Additional observations from a re-analysis of the deposited data

How the results depend on the processing

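Members kept a positive log2 fold change in all 117 alternative values, of which 8 passed a threshold that the main value did not. The other 109 did not pass it, and some of them had no adjusted p. DESeq2 gave an adjusted p for 5 of the 7 members tested, and for 3 without mouse 9121. For *Cd8b1*, *Zap70* and *Klrb1c*, which the main test left out, the main value was that of the fit without the filter. Against 0 members in the main test, the count was 1 by the exact test, 3 by the likelihood ratio test, 1 by DESeq2 and between 0 and 2 with each mouse left out in turn. With alternatives chosen after seeing the data, it was 1 by the likelihood ratio test without mouse 9121. For the other T and NK cell genes, 0 became 7 by the exact test, 7 by the likelihood ratio test, 4 by DESeq2 and between 0 and 5 with a mouse left out, and without mouse 9121 it was 3 by the exact and 4 by the likelihood ratio test. For all genes, 74 became 145 with no filter, 570 by the exact test, 628 by the likelihood ratio test, 482 by DESeq2 and between 0 and 901 with a mouse left out. It was 0 without 9055, 9056 or 9210, 137 without 9121 and 901 without 8637, and without 9121 it was 465 by the exact test, 501 by the likelihood ratio test, 302 by DESeq2 and 27 with no filter. The cause was not tested.

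The summed difference of the members was 8.69 CPM, and between 4.14 (without 9121) and 11.4 CPM (without 8637) with a mouse left out. Scaling by library size only raised the median log2 fold change of all genes by 0.16 and turned no member's direction. A lone wildtype mouse was assumed to vary like the null mice. No paired analysis was possible because the groups share no replicate numbers. With counts under 10, small differences were not detectable, and single mice of both genotypes moved the member values. With a mouse left out, the log2 fold change ran from 0.26 (without 9121) to 2.30 (without 9055) for *Cd3e*, from 1.05 (without 9056) to 2.83 (without 9055) for *Cd3g*, from 0.16 (without 9121) to 2.47 (without 9055) for *Cd4* and from 0.10 (without 9121) to 1.03 (without 9210) for *Lck*.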

Other observations

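Genes of other blood cells that could enter the tissue pieces did not all follow the pattern of the T and NK cell genes. B cell genes were low, and only 2 had enough counts for the quasi-likelihood test. It called 0 of the 2, against 0.533% of all genes tested in either direction. An unadjusted p under 0.05 was reached by 1 of the 2 and by 25.1% of all genes tested in either direction. *Cd79a*, part of the B-cell receptor, was listed at 0 in all 3 null mice and had 12 and 6 counts in wildtype mice 9055 and 9056. *Cd79b* had 9, 1 and 11 counts in null mice 8637, 9210 and 9121 and 24 and 21 in the wildtype mice (log2 fold change -1.75, adjusted p = 0.166 by edgeR's quasi-likelihood test). *Cr2*, the complement receptor of B cells, had 26, 79 and 43 counts in null and 23 and 28 in wildtype mice (0.90, adjusted p = 0.319 by the same test). *Cd22*, an inhibitory receptor of B cells, had 0, 6 and 15 counts in null and 10 and 4 in wildtype mice, and the genotypes overlapped. In the fit without the filter, 1 of the 10 B cell genes had a positive log2 fold change (52.5% of all genes).

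The sum of the neutrophil genes was higher in each null mouse than in each wildtype mouse. It was 7.66, 9.80 and 11.0 CPM in null and 1.74 and 1.54 CPM in wildtype mice. *S100a9*, a calcium-binding protein of neutrophils, was the only 1 of the 4 tested genes of this list that the main test called. That test called 0.404% of all genes as higher in null mice. *S100a9* passed its filter only through the null mice, with 60, 69 and 74 counts in null and 5 and 5 in wildtype mice (log2 fold change 3.66, adjusted p = 0.0313 by the quasi-likelihood test). The 3 null mice lay close together in *S100a9*, whereas they differed by up to 457 against 164 counts in the T and NK cell sum. Of the red blood cell genes, 0 of 2 tested were called, against 0.533% of all genes tested in either direction. They summed to between 122 and 184 CPM in null and between 68.7 and 89.0 CPM in wildtype mice. Nearly all of this sum came from *Slc4a1*, which intercalated cells of the kidney express as well, and *Alas2*, whereas the globin genes *Hba-a2* and *Hbb-bs* had 8 counts at most in a mouse, with overlapping genotypes for *Hbb-bs* and lower counts in the null mice for *Hba-a2*. Among the kidney cortex genes, *Nphs1*, which encodes a podocyte protein, was called higher in null mice (log2 fold change 1.08, adjusted p = 0.0334 by the quasi-likelihood test), and *Umod* and *Slc34a1* were not called.

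The part that the sex-linked difference of mouse 9121 had in any of these values was not tested.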
